A study of Mus musculus with 9 samples.

Results

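The cruciate ligaments were compared with the articular cartilage of the embryonic mouse knee, as RNA levels on Illumina bead arrays. The comparison used 6 arrays of 9 in the series, chosen by their titles: 3 of cruciate ligament and 3 of articular cartilage. Both tissues were taken from the hindlimb of CD-1 embryos at embryonic day 16, with no genetic change or treatment named in the labels. The other 3 arrays, of meniscus, entered the joint normalization, the filter on dim probes and the estimate of the spread, and are otherwise named only where a result turns on them. The labels do not state whether replicates are separate embryos or litters, and the p-values therefore cover the spread between these arrays, part of which may be technical. All RNA was amplified before labelling, and it came from whole tissue. A lower level can therefore reflect fewer cells of a type or less RNA per cell, and these cannot be told apart.

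Articular cartilage is the hyaline layer that covers the bone ends. Its cells, the chondrocytes, secrete type II, IX and XI collagen fibrils and the proteoglycan aggrecan under the transcription factors Sox9, Sox5 and Sox6. The cruciate ligaments are dense bands that tie femur to tibia; their fibroblasts lay down aligned type I collagen fibrils, whose width and spacing are set by small leucine-rich proteoglycans and whose cross-links are made by lysyl oxidases. Scleraxis and Mohawk are transcription factors of tendon and ligament fibroblasts, and both tissues descend in part from joint progenitors that carry Gdf5.

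The ligament arrays were a set apart from the others, so array set and tissue cannot be told apart in any result below. Their median scanner signal was between 147.4 and 209.7, against 99.5 to 103.8 on the cartilage arrays, and the share of probes detected at a detection p under 0.01 was between 18.0% and 20.9%, against 29.4% to 35.6%. After joint normalization, log2 levels across probes correlated at a median of 0.83 between ligament arrays, 0.94 between cartilage arrays and 0.82 between a ligament and a cartilage array. The SD over 3 arrays had a median over genes of 0.50 in ligament and 0.26 in cartilage. Every adjusted p below comes from limma with 1 spread for all 9 arrays unless stated. The fit restricted to the ligament and cartilage arrays, called the fit of both tissues alone, is given for leading genes and wherever it ends the call of a named gene, since the shared spread understates that of ligament.

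Of 7234 named genes tested, 275 were higher and 822 were lower in ligament than in cartilage at an adjusted p under 0.05, which is 3.8% and 11.4% of the genes, or 15.2% together. At an unadjusted p under 0.05, 8.47% were higher and 23.2% lower. The fit of both tissues alone called 117 higher and 372 lower of the 7234, and the counts of each list in that fit are to be read beside these. Of the genes tested, 630 had passed the filter on dim probes through the meniscus arrays alone. The median gene was lower in ligament by a difference of -0.23 on the log2 scale. All differences below are log2 differences, ligament minus cartilage, given relative to that median gene, while each test was of the plain difference. Among the 3434 genes detected on all 6 arrays, 206 were called higher and 237 lower, and their median lay at 0.21 on this relative scale. Many lower calls came from probes near the background in ligament: of the 822, the probe was above background on no ligament array for 395 and on 1 or 2 of them for 190. The 3 arrays of each tissue did not overlap for 1096 of the 1097 called genes, and for 33.5% of all genes. The calls were made from these same arrays, so a lack of overlap among called genes, here and below, is no separate support for them. Leaving out cartilage replicate 1, 2 or 3 gave 146, 113 and 137 higher calls and 454, 314 and 346 lower calls. The split also moved with the scaling: cyclic loess normalization gave 404 higher and 481 lower, scaling to array medians 86 and 3715, and centring on all tested features 355 and 572.

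**Figure D1:**
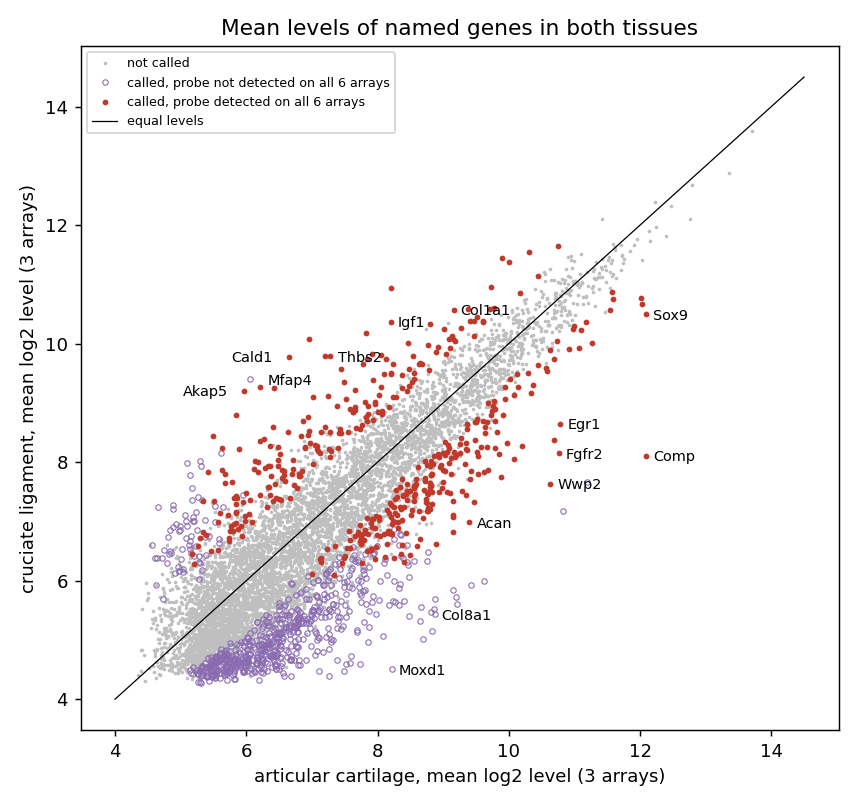
Mean normalized log2 level of each of 7234 named genes over 3 articular cartilage arrays (x axis) and over 3 cruciate ligament arrays (y axis), with the line of equal levels; filled points are called genes detected on all 6 arrays, open points other called genes. Comp, Wwp2 and Fgfr2 lie far below the line, Mfap4, Cald1 and Akap5 far above it, and most of the open points crowd at the low end of the ligament axis.

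The 12 largest rises among genes detected on all 6 arrays lay between 2.64 and 3.47. Mfap4, which encodes a microfibril-associated glycoprotein of elastic fibres, had levels of 6.30, 6.38 and 5.95 on cartilage arrays 1 to 3 and of 9.07, 9.38 and 9.38 on ligament arrays 1 to 3. The groups lay far apart with little spread in either, and the rise was 3.30 (SE 0.21, adjusted p = 0.000331, and 0.00863 in the fit of both tissues alone), a 9.86-fold change relative to the median gene. Akap5, an anchor for protein kinase A, read 5.70, 5.63 and 6.59 in cartilage and 8.52, 9.19 and 9.90 in ligament, a rise of 3.47 (SE 0.42, adjusted p = 0.00264). Cald1, the actin-binding protein caldesmon, read 7.29, 6.74 and 5.93 in cartilage and 10.21, 9.97 and 9.14 in ligament, a rise of 3.36 (adjusted p = 0.00264); 1 of its other 3 probes, detected on 1 ligament and 2 cartilage arrays, differed by -0.12 relative to the median gene. No ligament array overlapped a cartilage array for any of these genes.

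Lox, the lysyl oxidase that cross-links collagen and elastin, read 6.77, 6.48 and 8.34 in cartilage and 9.42, 10.19 and 9.77 in ligament, with cartilage array 3 the nearest to ligament (rise 2.83, adjusted p = 0.00702). Thbs2, a matricellular thrombospondin that influences collagen fibril assembly, read 6.69, 7.23 and 7.92 against 10.08, 10.07 and 9.22 (rise 2.74, adjusted p = 0.00347). The others with large rises were Socs2, a feedback inhibitor of growth hormone signalling, by 3.36, Pea15a, a phosphoprotein that binds ERK kinase, by 3.19, and Zc3hav1, an antiviral RNA-binding protein, by 3.18. Rgs5, a regulator of G protein signalling known from pericytes, rose by 3.06, Mid1, a microtubule-bound ubiquitin ligase, by 2.97, and the protocadherin Pcdh17 by 2.84. These 11 genes kept their calls under every alternative run for each, 26 for Zc3hav1 and 27 for the others. Dhx29, an RNA helicase of translation initiation, was the exception among the 12: its adjusted p of 0.0263 became 0.0663 in the fit of both tissues alone, its ligament levels of 9.36, 7.27 and 6.86 rested on array 1, and its other probe differed by -0.01.

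The 12 largest falls among genes detected on all 6 arrays lay between -1.85 and -3.75 and were led by cartilage genes. Comp, the cartilage oligomeric matrix protein, which binds collagen and is also known from adult tendon, read 11.81, 12.58 and 11.88 in cartilage and 8.24, 6.89 and 9.20 in ligament. All 3 ligament arrays were far below cartilage but spread widely among themselves, and the gene fell by 3.75 (SE 0.63, adjusted p = 0.00504, and 0.0182 in the fit of both tissues alone). Wwp2, a ubiquitin ligase whose gene hosts miR-140 of chondrocytes, read 10.66, 10.67 and 10.56 against 7.40, 6.86 and 8.64 and fell by 2.76 (adjusted p = 0.003). Fgfr2, a receptor for fibroblast growth factors, read 10.82, 10.73 and 10.72 against 8.49, 7.76 and 8.20 and fell by 2.38 (SE 0.23, adjusted p = 0.000952). The tight cartilage values of both genes did not overlap the ligament values.

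Outside the cartilage genes, the peptide-amidating enzyme Pam fell by 1.91, Higd1a, a mitochondrial protein induced by low oxygen, by 1.85, and the phosphatase Ppm1b by 1.85, with adjusted p-values of 0.0113, 0.00123 and 0.00264. Eef1akmt1, which methylates elongation factor 1A, was called with an adjusted p of 0.0303 that became 0.0802 in the fit of both tissues alone; its ligament array 2, at 7.96, lay close to cartilage array 2, at 8.24, while arrays 1 and 3 were at 5.74 and 6.14. The other 11 of these 12 genes kept their calls under all 27 alternatives.

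**Figure D2:**
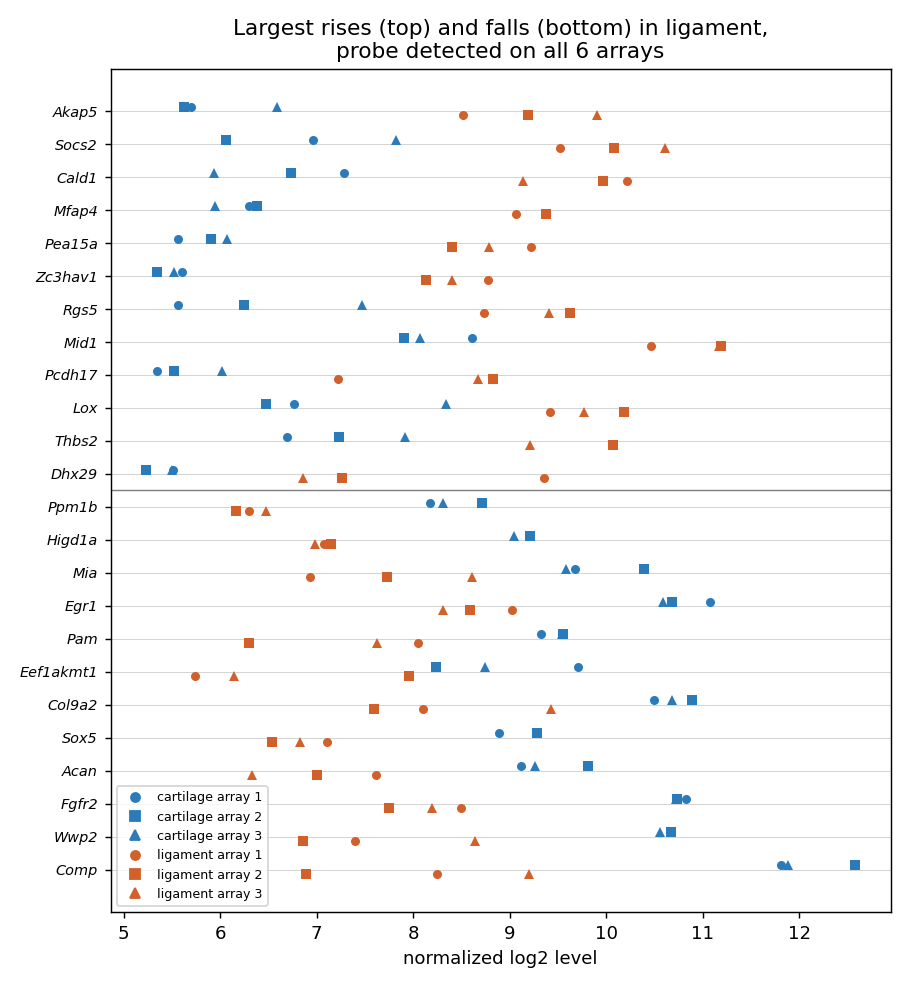
Normalized log2 level (x axis) of the 12 genes with the largest rises and the 12 with the largest falls in ligament among genes detected on all 6 arrays, with cartilage arrays in blue and ligament arrays in orange and the marker shape giving the replicate. The colours do not overlap for any of the 24 genes, the cartilage points of most falling genes lie close together, and the ligament points of Comp run from 6.89 to 9.20.

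Where a gene was not above background on any array of the dimmer tissue, only a bound was measured: the brighter tissue's mean against the dimmer tissue's mean of the lowest detected signal or the probe's own, whichever was higher. All bounds are of plain levels, which carry the shift of the median gene. Those of lower genes are thus larger, and those of higher genes smaller, than they would be relative to that gene. The 6 largest bounds for lower genes were at least 7.97-fold for Col8a1, a short-chain collagen, at least 5.06-fold for Moxd1, a monooxygenase-like protein, at least 4.61-fold for Rflna, at least 3.996-fold for the ectonucleotidase Nt5e, at least 3.95-fold for Abtb2 and at least 3.64-fold for Gdf10, a growth factor of the bone morphogenetic protein family. Moxd1 read 8.15, 8.42 and 8.08 in cartilage and 4.59, 4.46 and 4.47 in ligament (adjusted p = 0.000331, and 0.00665 in the fit of both tissues alone). Those ligament values lie below the lowest detected signals of the arrays, 5.74, 5.84 and 6.04, so their closeness does not measure a steady level. The adjusted p-values of genes given by a bound use such background readings as they stand. In the opposite direction the bounds were smaller: at least 3.26-fold for Tmem79, at least 2.96-fold for Chrdl1, a secreted antagonist of bone morphogenetic proteins, at least 2.81-fold for Nrarp, at least 2.56-fold for Galnt14, at least 2.53-fold for Fam217b and at least 2.39-fold for Vstm5. Chrdl1 read 4.61, 4.55 and 4.54 in cartilage and 6.82, 6.35 and 6.62 in ligament (adjusted p = 0.00139, and 0.0135 in the fit of both tissues alone). The call of Nrarp was lost in that fit (adjusted p = 0.0805), and the other 11 kept theirs.

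Defining genes of both tissues were read first as a check of the labels. Sox9, the master regulator of chondrocytes, read 12.03, 12.12 and 12.12 in cartilage and 10.35, 10.36 and 10.78 in ligament and fell by 1.36 (SE 0.22, adjusted p = 0.00347). Acan, the core protein of aggrecan, read 9.12, 9.82 and 9.26 against 7.61, 7.003 and 6.33 and fell by 2.18 (adjusted p = 0.00392); its other probe differed by -0.35. Col1a1, a chain of type I collagen, read 9.37, 9.11 and 8.99 against 10.57, 10.68 and 10.47 and rose by 1.65 (SE 0.20, adjusted p = 0.00375). Each of these 3 kept apart on all arrays in the direction the labels name.

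Other landmarks were not as clear. Col2a1, the main collagen of cartilage, read 11.15, 11.24 and 11.21 against 10.64, 10.44 and 10.97 on the probe used, a difference of -0.28 (SE 0.25, adjusted p = 0.18), while its other 2 probes differed by -1.997 and 0.15. Gdf5, the joint growth factor, read 5.71, 6.59 and 7.40 in cartilage and lay at background throughout ligament, at least 1.62-fold lower (adjusted p = 0.0123). Of the defining ligament transcription factors and surface proteins, Scx was detected on 1 ligament array and on no cartilage array and Tnmd on none of the 6, so neither entered the test. Prg4, lubricin of the joint surface, was not analysed here.

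The cartilage matrix genes had the lowest median difference of the lists read here. Of 21 tested, 16 were lower and 1 was higher in ligament, beside 11.4% and 3.8% over all genes, and their median difference was -2.18 against 0 for all genes. The fit of both tissues alone called 12 lower and 0 higher, beside 372 and 117 of all 7234 genes. Among the 9 members detected on all 6 arrays 6 were lower and 1 higher, beside 237 and 206 of all 3434 such genes. The median of these members was -1.79 where all such genes had 0.21. Cytl1, a secreted protein of chondrocytes, read 8.04, 9.43 and 8.60 in cartilage and 4.53, 4.48 and 6.06 in ligament (fell by 3.44, adjusted p = 0.003), with its probe above background on ligament array 3 alone. Cnmd, the anti-angiogenic chondromodulin, read 9.02, 9.57 and 8.98 against 6.35, 4.97 and 5.85 (fell by 3.23, adjusted p = 0.00264). Its readings on ligament arrays 2 and 3 lay below the lowest detected signals of those arrays, 5.84 and 6.04. Snorc, a membrane proteoglycan of chondrocytes, was above background on no ligament array and was at least 3.12-fold lower (adjusted p = 0.000952). Ligament values of all 3 genes lay below the lowest cartilage value.

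On the probes used, ligament array 3 read higher than arrays 1 and 2 for several cartilage collagens and matrilins. Col9a1, a chain of the type IX collagen that decorates type II fibrils, read 6.27 and 5.64 on ligament arrays 1 and 2 but 9.60 on array 3, beside 10.48, 11.26 and 10.73 in cartilage. Matn1, a filament-forming matrix protein, read 5.52, 7.43 and 10.06 in ligament, beside 10.68, 11.81 and 11.08. Hapln1, the link protein that fixes aggrecan to hyaluronan, read 7.43, 7.34 and 9.40, beside 9.89, 10.42 and 9.93. These 3 genes passed the test with adjusted p-values of 0.0239, 0.0467 and 0.0281 but not in the fit of both tissues alone, where they had 0.0701, 0.0889 and 0.0779. The calls of Col9a1, Matn1 and Hapln1 were also lost without ligament array 1 or any 1 cartilage array, with adjusted p-values of up to 0.0849, 0.145 and 0.0999, those of Matn1 and Hapln1 without ligament array 2, and that of Matn1 without any 1 meniscus array. Col9a2 showed the same ordering at 8.10, 7.59 and 9.43, beside 10.50, 10.89 and 10.68, and its fall of 2.08 passed both fits (adjusted p = 0.00901 and 0.0369). Col9a3, the remaining chain, read 4.57, 4.70 and 6.93 and fell by 2.84 (adjusted p = 0.0124, and 0.0547 without cartilage array 2), with its probe above background on 1 ligament array. Its other probe, with a similar mean in cartilage (8.62 against 8.48), was above background on no ligament array, array 3 included, and differed by -3.70. Further probes of Col9a1 were above background on 2 ligament arrays or on none.

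Other members changed less. Matn4 read 11.87, 12.25 and 11.97 in cartilage and 10.45, 10.51 and 11.04 in ligament, and its fall of 1.13 (adjusted p = 0.0319) was lost without ligament array 1 or 2, any cartilage array or meniscus array 2, with adjusted p-values of up to 0.109. Col11a1, of the core of cartilage fibrils, read 10.13, 10.14 and 9.76 against 10.27, 9.77 and 9.98, overlapping throughout, while its other 2 probes, both detected on all 6 arrays, differed by -1.17 and 1.01. Fmod, a small proteoglycan of fibrillar collagen that is also counted among the tendon genes, was the member called higher; its other probe differed by -0.43.

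**Figure D3:**
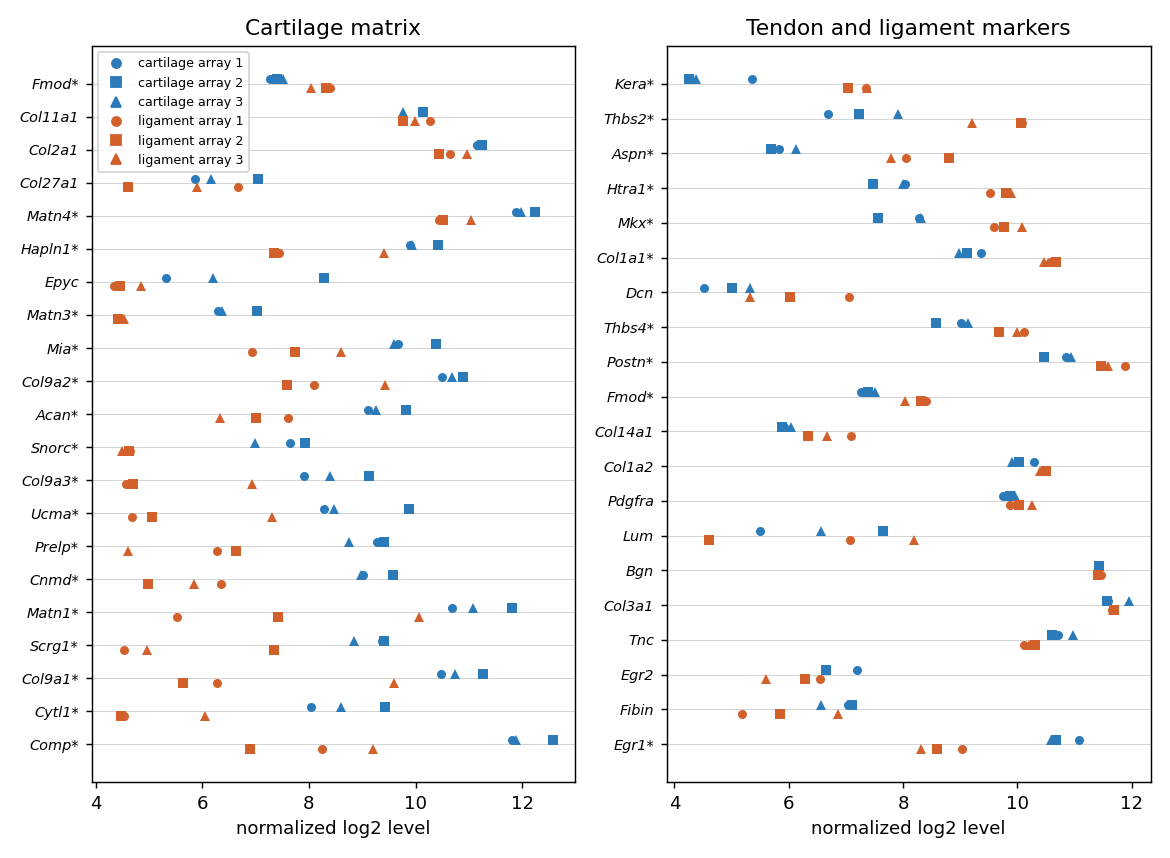
Normalized log2 level (x axis) of the 21 tested cartilage matrix genes (left) and the 20 tested tendon and ligament genes (right) on each array, ordered by the difference between tissues, with cartilage in blue, ligament in orange and an asterisk on called genes. Ligament array 3, drawn as an orange triangle, stands to the right of the other ligament arrays for Col9a1, Matn1, Hapln1, Ucma and Col9a3, while Kera, Aspn and Thbs2 separate the tissues on the right.

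The promoters of 2 genes that fell and 2 that rose, all detected on all 6 arrays, are shown to give the sequence around their starts. They are RefSeq sequences of build GRCm38.p6 from 250 bases before to 50 bases after the start, on the gene's strand. Acan lies at chr7:79052976-79053275 on the plus strand, Col9a2 at chr4:121039316-121039615 on the plus strand, Thbs2 at chr17:14694213-14694512 on the minus strand and Aspn at chr13:49544193-49544492 on the plus strand. In the first pair capitals would mark ACAAT or its reverse complement ATTGT, the core that Sox proteins bind; in the second pair they mark CANNTG, the E-box bound by basic helix-loop-helix factors such as scleraxis.
Acan: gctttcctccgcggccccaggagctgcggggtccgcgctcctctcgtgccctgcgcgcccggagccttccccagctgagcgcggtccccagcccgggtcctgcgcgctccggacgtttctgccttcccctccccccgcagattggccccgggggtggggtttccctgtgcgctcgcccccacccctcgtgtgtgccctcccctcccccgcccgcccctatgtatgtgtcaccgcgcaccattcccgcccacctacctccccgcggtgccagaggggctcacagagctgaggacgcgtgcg
Col9a2: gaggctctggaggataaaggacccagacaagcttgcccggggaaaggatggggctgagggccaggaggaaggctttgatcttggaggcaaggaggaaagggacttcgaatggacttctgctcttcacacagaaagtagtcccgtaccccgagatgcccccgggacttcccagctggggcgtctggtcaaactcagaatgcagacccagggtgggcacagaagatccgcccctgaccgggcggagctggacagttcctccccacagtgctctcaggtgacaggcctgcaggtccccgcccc
Thbs2: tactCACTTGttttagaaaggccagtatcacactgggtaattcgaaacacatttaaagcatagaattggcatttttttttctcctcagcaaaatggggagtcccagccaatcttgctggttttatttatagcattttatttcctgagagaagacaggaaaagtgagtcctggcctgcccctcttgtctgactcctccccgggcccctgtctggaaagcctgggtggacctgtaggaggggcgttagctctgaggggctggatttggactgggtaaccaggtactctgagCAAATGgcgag
Aspn: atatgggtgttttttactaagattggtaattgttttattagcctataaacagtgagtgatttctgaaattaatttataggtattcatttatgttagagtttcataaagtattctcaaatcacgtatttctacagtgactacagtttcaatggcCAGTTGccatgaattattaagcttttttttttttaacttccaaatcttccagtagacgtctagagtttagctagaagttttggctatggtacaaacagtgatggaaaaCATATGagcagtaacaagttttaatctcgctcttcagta
The sequence of Acan was 74.0% G or C and that of Col9a2 61.7%, against 48.3% for Thbs2 and 31.0% for Aspn and a median of 52.7% over 32851 promoters. The Sox core, read on both strands, was found in neither of the first pair, and in 2 of 14 promoters of 12 cartilage matrix genes called lower, against 31.0% of all promoters. The E-box, which reads the same on both strands, was found at 2 places each in Thbs2 and Aspn, and in 4 of 8 promoters of 7 tendon and ligament genes called higher, against 72.3% of all promoters. Each motif also occurs, unmarked, in the opposite pair: the E-box at 1 place in Acan and 2 in Col9a2, and the Sox core at 1 place in Aspn. Of the 14 cartilage matrix promoters 10 held an E-box, and of the 8 tendon and ligament promoters 3 held a Sox core. The Sox core can overlap an E-box, and a match describes letters in this window and nothing more.

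Regulators of chondrocytes were read next. Of 15 tested, 8 were lower and 1 was higher, beside 11.4% and 3.8% of all genes, and the median difference was -1.29. In the fit of both tissues alone 6 were lower and 1 was higher. Sox5, the partner of Sox9 on cartilage enhancers, read 8.89, 9.28 and 9.28 in cartilage and 7.10, 6.54 and 6.82 in ligament and fell by 2.10 (SE 0.25, adjusted p = 0.00149); 1 of its other 5 probes differed by 0.44. Foxa3, a forkhead factor, read 8.93, 9.33 and 8.24 against 4.70, 4.45 and 6.32 and fell by 3.45 (adjusted p = 0.00264), with a probe above background on ligament array 3 alone. Dlx5, a homeobox factor of skeletal differentiation, was at least 2.25-fold lower and Nfatc1 at least 2.35-fold lower, neither above background in ligament. Nfatc2, a related factor, went the other way: it was above background on all ligament arrays and on no cartilage array and was at least 2.29-fold higher (adjusted p = 0.0206, and 0.0302 in the fit of both tissues alone), though its call was lost without any 1 of the cartilage arrays (adjusted p of up to 0.0731). Sox6, the third partner, read 6.85, 6.37 and 7.12 against 5.65, 5.47 and 6.07 and missed the threshold (difference -0.82, adjusted p = 0.0574). Of 6 tested genes of growth plate and bone, 3 were lower, beside 11.4% of all genes. Gli1, a target and effector of hedgehog signalling, was the 1 that passed in the fit of both tissues alone, at least 3.22-fold lower.

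Among genes known from tendon and ligament, higher calls outnumbered lower ones. Of 20 tested, 9 were higher and 1 lower, beside 3.8% and 11.4% over all genes, and 6 and 1 in the fit of both tissues alone; the median difference was 1.03. Kera, the fibril-spacing proteoglycan keratocan, read 5.35, 4.25 and 4.38 in cartilage, with a probe above background on 1 array, and 7.35, 7.03 and 7.37 in ligament (rise 2.82, SE 0.46, adjusted p = 0.00781). Aspn, the related proteoglycan asporin, read 5.83, 5.68 and 6.13 against 8.05, 8.80 and 7.79 (rise 2.57, adjusted p = 0.0023). Mkx, which encodes Mohawk, read 8.27, 7.55 and 8.32 against 9.58, 9.77 and 10.08 (rise 1.995, SE 0.26, adjusted p = 0.00403). These 3 genes and Thbs2 and Htra1, a secreted serine protease, which rose by 2.13, kept their calls under every alternative run.

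The remaining tendon genes were weaker on the probes used. Postn, the matricellular protein periostin, read 10.85, 10.47 and 10.95 in cartilage and 11.89, 11.46 and 11.59 in ligament; Thbs4, a thrombospondin of tendon and muscle attachment, read 9.02, 8.58 and 9.14 against 10.12, 9.68 and 9.999. Their rises of 1.12 and 1.25 and that of Fmod, 1.09, had adjusted p-values of 0.0336, 0.0206 and 0.0345, and of 0.0789, 0.064 and 0.0691 in the fit of both tissues alone; with arrays scaled to their medians, the plain differences of Postn and Fmod turned to -0.18 and -0.018. Without cartilage array 2 the adjusted p-values of Postn, Thbs4 and Fmod were 0.125, 0.0808 and 0.102, and the calls of Postn and Fmod were also lost without ligament array 1 or cartilage array 1 or 3, with values of up to 0.0735 and 0.102. Fmod lost its call without ligament array 2 or meniscus array 1 as well, and Postn without meniscus array 3. The other probes of Postn, detected on all arrays of both tissues, rose more than the probe used, by 1.93 and 2.33, while the other probe of Fmod differed by -0.43. Col1a2, the partner chain of Col1a1, read 10.30, 10.03 and 9.90 against 10.48, 10.50 and 10.39, apart on all arrays but with an adjusted p of 0.262. Bgn, Col3a1 and Pdgfra differed by 0.24, 0.20 and 0.43 with no call. Egr1, a transcription factor that acts in tendon formation, was the member called lower. At an unadjusted p under 0.05 by limma, 11 members were higher and 3 lower, beside 8.47% and 23.2% of all genes. Tnc, a tenascin gene known from tendon and ligament, differed by -0.32 on the probe used, with no call. Its other probes differed by between -1.43 and -0.006.

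The wider families of fibrous matrix moved in both directions. Of 16 collagens of dense connective tissue, 2 were higher and 4 lower in both fits. Beside them stand 3.8% and 11.4% of all genes over 9 arrays, and 117 and 372 of 7234 in the fit of both tissues alone. Col4a1, a basement membrane collagen, read 7.30, 7.36 and 7.82 in cartilage and 9.45, 9.33 and 9.28 in ligament and rose by 2.09 (SE 0.22, adjusted p = 0.00215). Col15a1, a collagen of the basement membrane zone, read 8.42, 9.17 and 8.99 against 6.85, 5.03 and 4.67 and fell by 3.11 (adjusted p = 0.00453), above background on ligament array 1 alone. Col6a1, a chain of the microfibrils around cells, fell by 1.14 (adjusted p = 0.00506), while its partner chain Col6a2 read 9.07, 8.53 and 8.66 against 9.36, 9.53 and 9.20 with no call. Col16a1 fell by 1.68 (adjusted p = 0.0116, and 0.0529 without cartilage array 2). In the family of small leucine-rich proteoglycans and elastic fibres, 17 genes were tested. Of these, 5 were higher and 1, Prelp, was lower, beside the same shares of all genes, with 3 and 1 in the fit of both tissues alone. Prelp, which anchors matrix to basement membranes, fell by 3.07 (adjusted p = 0.00379).

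Enzymes that modify collagen moved in both directions, where 3.8% of all genes were higher and 11.4% lower. Of 21 genes, 2 were higher, Lox and P4ha3, a proline hydroxylase subunit that rose by 2.10 (adjusted p = 0.0102), and 4 were lower, of which P4ha2, another such subunit, passed in the fit of both tissues alone. P4ha2 read 9.36, 9.44 and 9.25 in cartilage and 7.97, 6.75 and 7.61 in ligament and fell by 1.67 (adjusted p = 0.00592, and 0.0265). The collagen chaperone Serpinh1 and the disulfide isomerase P4hb differed by 0.24 and -0.01 without a call. Of 17 matrix proteases and inhibitors 5 were higher and 0 lower by limma, with 6 and 2 at an unadjusted p under 0.05, beside 8.47% and 23.2% of all genes. Htra1 and Adamts4, an aggrecan-cleaving protease, remained called in the fit of both tissues alone. Adamts4 read 6.83, 6.31 and 7.68 against 8.65, 8.75 and 8.89 (rise 2.05, adjusted p = 0.0137, and 0.0523 without cartilage array 2). Of 20 enzymes and transporters for glycosaminoglycan chains, 5 were lower and 0 higher by limma, with 9 and 1 at an unadjusted p under 0.05, beside 23.2% and 8.47% of all genes. In the fit of both tissues alone 3 were lower. Those 3 were Ugdh, which makes the sugar precursor of chondroitin and hyaluronan and fell by 1.35 (adjusted p = 0.00379), Papss2, which makes the sulfate donor and fell by 1.34 (adjusted p = 0.00769), and Slc26a2, the sulfate carrier, at least 1.84-fold lower.

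Most Wnt genes that passed the test encode secreted inhibitors. Of 9 tested, 3 were lower and 1 higher, beside 11.4% and 3.8% of all genes, with 2 and 1 in the fit of both tissues alone. Wif1, a secreted Wnt inhibitor, read 9.16, 8.76 and 8.55 in cartilage and 6.14, 5.49 and 4.77 in ligament, with a probe above background on 1 ligament array, and fell by 3.12 (SE 0.37, adjusted p = 0.00186). Frzb, another secreted inhibitor made by chondrocytes, fell by 1.64 (adjusted p = 0.00406). Rspo2, an R-spondin that strengthens Wnt signalling, read 5.78, 4.72 and 5.44 against 7.51, 7.64 and 8.64 and rose by 2.85 (adjusted p = 0.00804). Dkk3, of the secreted Dickkopf family, differed by 1.01 with no call (adjusted p = 0.0953), and its other probe by 1.32. Of 23 genes of TGF-beta and BMP signalling, 7 were lower and 2 higher, beside the same shares, with 5 and 1 in the fit of both tissues alone. Gdf10 and Gdf5 were among the lower ones and Chrdl1 was the higher one in both fits. Id4, a target of these pathways, was at least 1.84-fold lower (adjusted p = 0.00465).

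The insulin-like growth factor system held large changes of both signs. Igf1, the ligand, read 8.74, 7.35 and 8.51 in cartilage and 10.64, 10.61 and 9.87 in ligament and rose by 2.41 (SE 0.37, adjusted p = 0.00672, and 0.0344 in the fit of both tissues alone), a 5.30-fold change relative to the median gene. Igfbp3, the main carrier of the ligand in blood, read 7.16, 7.20 and 7.97 against 9.43, 9.67 and 9.64 and rose by 2.37 (adjusted p = 0.00264), and Igfbp4, a binding protein that restrains the ligand, rose by 2.10 (adjusted p = 0.0143, and 0.0541 without cartilage array 2). Igfbp2, a further binding protein, read 8.25, 7.79 and 8.95 against 6.07, 6.11 and 5.43 and fell by 2.22 (adjusted p = 0.00264). Its reading on ligament array 3 lay below the lowest detected signal of that array, 6.04. Igf2, the fetal ligand, overlapped between tissues, with 11.58, 11.37 and 11.60 against 11.37, 11.48 and 11.40 (difference 0.13, SE 0.19). The receptor Igf1r fell by 1.63 (adjusted p = 0.0181, and 0.0721 and 0.0581 without cartilage arrays 2 and 3). In all, of 17 genes of FGF and IGF signalling 3 were higher and 5 lower in both fits. The shares of all genes were 3.8% and 11.4% over 9 arrays, and the numbers in the fit of both tissues alone 117 and 372 of 7234. The feedback inhibitor Spry2, which fell by 1.17 (adjusted p = 0.0109), was lower along with Fgfr2.

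Of 6 tested Notch genes, 2 were higher and 1 lower, beside 3.8% and 11.4% of all genes, with 1 higher in the fit of both tissues alone. That gene, Notch4, an endothelial receptor, read 5.15, 4.98 and 5.40 in cartilage and 7.08, 8.31 and 6.70 in ligament and rose by 2.42 (adjusted p = 0.00826, and 0.0342). Of 19 limb and joint patterning factors, 3 were higher and 3 lower, beside the same shares, with 1 of each in the fit of both tissues alone. Meox2, a homeobox factor of the limb, read 5.91, 5.76 and 6.33 against 7.55, 7.16 and 7.75 and rose by 1.72 (SE 0.24, adjusted p = 0.00518). Hoxd10 was at least 1.01-fold lower on plain levels, a bound smaller than the shift of the median gene.

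Of 28 genes of low oxygen and of sugar breakdown, 7 were lower and 0 higher by limma, with 17 and 0 at an unadjusted p under 0.05, beside 23.2% and 8.47% of all genes. The median was -0.55, and 5 were lower in the fit of both tissues alone. Slc2a1, the glucose transporter, read 9.70, 9.58 and 9.57 in cartilage and 7.76, 7.98 and 7.78 in ligament and fell by 1.54 (SE 0.21, adjusted p = 0.00239). The glycolytic enzymes Ldha, Pgam1 and Pgk1 differed by -0.03, -0.16 and -0.32 with no call. On the plain levels, which carry the shift of the median gene, the ligament arrays of these 3 lay below the cartilage arrays, as they did for 24.1% of all genes, and another probe of Pgk1 differed by -1.54. Of 22 immediate early and stress genes, 8 were lower and 0 higher by limma, with 11 and 0 at an unadjusted p under 0.05, beside the same shares of all genes, and 5 were lower in the fit of both tissues alone. Egr1, which is switched on within minutes of a stimulus, read 11.08, 10.68 and 10.59 against 9.03, 8.59 and 8.31 and fell by 1.91 (SE 0.26, adjusted p = 0.00264), and its relative Egr3 was at least 3.06-fold lower (adjusted p = 0.000651). The growth arrest gene Btg2 fell by 1.19 (adjusted p = 0.00588).

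Contractile and cell adhesion genes were called about as often as all genes, of which 15.2% were called in either direction. Of 24 actin and myosin genes, 3 were higher in both fits, Cald1, the myosin light chain Myl9, which rose by 2.24 (adjusted p = 0.00826), and Mylk, the kinase of that chain, which rose by 1.86 (adjusted p = 0.00856), while 1 of the other 2 Mylk probes differed by -0.16. The 1 lower call of this list, Actn4, an actin cross-linker, with a fall of 1.13 (adjusted p = 0.0347), was lost in the fit of both tissues alone (adjusted p = 0.0935), and its other 2 probes differed by 0.70 and 0.29. The smooth muscle actin Acta2 differed by 0.44 with no call. Of 17 integrins and adhesion molecules 2 were higher and 1 lower, with 1 of each in the fit of both tissues alone, and Mcam, an adhesion molecule of vessel walls, read 7.59, 7.53 and 7.86 against 8.86, 9.31 and 9.50 and rose by 1.79 (adjusted p = 0.00377). Itga9, an integrin chain that binds tenascin, fell by 1.45 (adjusted p = 0.00525). Among housekeeping groups, 5 of 28 cell cycle genes were lower and 1 higher, 4 of 31 cytosolic ribosomal proteins were lower, 2 of 33 respiratory chain genes were higher and 1 lower, and 2 of 26 secretory pathway genes were higher. Their median differences were -0.28, -0.20, 0.15 and 0.18, beside 15.2% of all genes called in either direction. In the fit of both tissues alone, 3 cell cycle genes, 2 ribosomal proteins and 1 respiratory chain gene were lower, and 1 secretory pathway gene was the only higher call of these 4 groups.

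**Figure D4:**
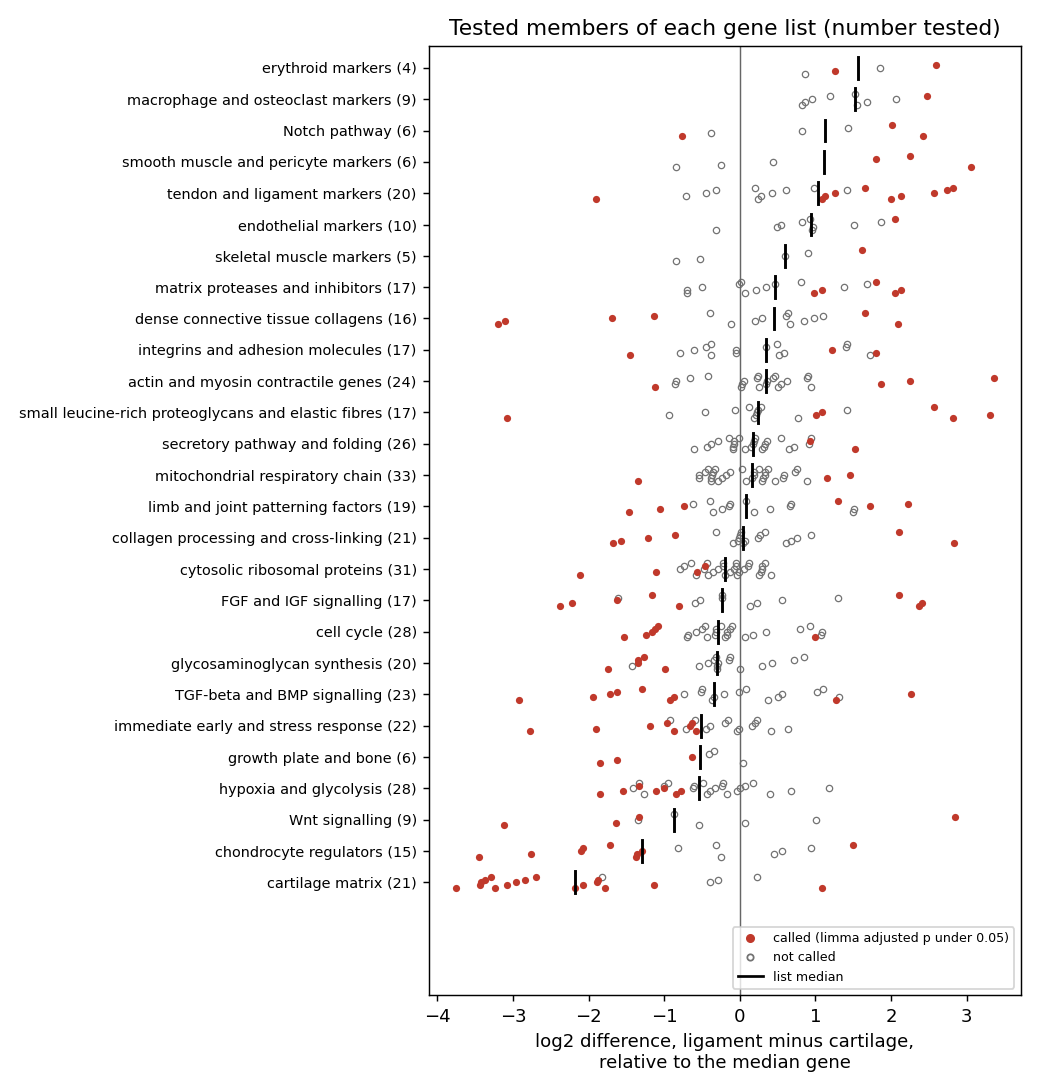
Log2 difference, ligament minus cartilage, relative to the median gene (x axis) for the tested members of each gene list with at least 4 of them, ordered by the list median (black bar), with called genes in red and the number tested in parentheses. The cartilage matrix list lies lowest with a median of -2.18, the tendon and ligament list has a median of 1.03, and the erythroid, macrophage, Notch and vessel wall lists lie at the top.

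Markers of other cell types were read array by array, since a piece of ligament can hold vessels, blood, nerve and muscle. As a mean log2 level over the list, the 6 tested of 13 markers of smooth muscle and pericytes were between 7.0004 and 7.49 in cartilage and between 7.76 and 8.27 in ligament. Of those tested, 3, Rgs5, Myl9 and Mcam, rose in both fits. The untested members of the list, Pdgfrb and Notch3 among them, were above background on no ligament array, while Cnn1 and Kcnj8 were above it on 2 cartilage arrays each. The 4 tested of 10 erythroid markers on the array were between 6.30 and 7.001 in cartilage and between 7.58 and 8.76 in ligament. Hba-a1, an adult alpha globin, read 7.77, 8.47 and 7.22 against 10.30, 10.03 and 10.21 and rose by 2.59 (adjusted p = 0.00318), though a near-identical copy of the gene can share its probe. The 10 tested of 18 endothelial markers were between 4.98 and 5.09 in cartilage and at 6.22, 5.90 and 5.26 on ligament arrays 1 to 3. They gave 1 call, lost in the fit of both tissues alone, and the tested probes of Pecam1, Cdh5 and Cldn5 were above background on none of the 6 arrays. Ligament arrays 1 and 2 thus stood above cartilage and array 3 close to it. The lowest detected signal was 5.74, 5.84 and 6.04 on ligament arrays 1 to 3 and between 4.90 and 5.13 on the cartilage arrays. These endothelial means therefore lie near background, and the order of the arrays does not measure an amount of endothelial RNA.

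The 9 tested of 18 macrophage and osteoclast markers on the array showed the same order more steeply, at 7.86, 6.19 and 5.36 on ligament arrays 1 to 3 and between 5.11 and 5.49 in cartilage. Mrc1, the macrophage mannose receptor, read 9.50, 7.47 and 4.96 in ligament and 4.76, 5.63 and 6.05 in cartilage, with no call, and Tyrobp, the signalling adaptor called higher (adjusted p = 0.0309), lost its call in the fit of both tissues alone (adjusted p = 0.0719). Skeletal muscle markers, 5 of 22 tested, were between 6.15 and 6.53 in cartilage and between 6.15 and 6.88 in ligament; the master factors Myod1 and Myf5 were not above background on any of the 6 arrays, Myog was above it on 1 ligament array and no cartilage array, and the giant sarcomere protein Ttn rose by 1.62 (adjusted p = 0.0102). No osteoblast marker of 8 on the array was detected well enough to be tested. For nerve, fat, skin and lymphoid cells, 2, 2, 1 and 1 markers were tested, with 1 lower call in all, for Pmp22, lost in the fit of both tissues alone. The part of vessel, blood and macrophage RNA in the differences above was not tested. The array with the lowest means of these markers, ligament array 3, was also that with the highest ligament readings of Col9a1, Matn1 and Hapln1 on the probes used. It had the smallest share of detected probes, 18.0%, and its macrophage mean of 5.36 lay below its lowest detected signal of 6.04.

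**Figure D5:**
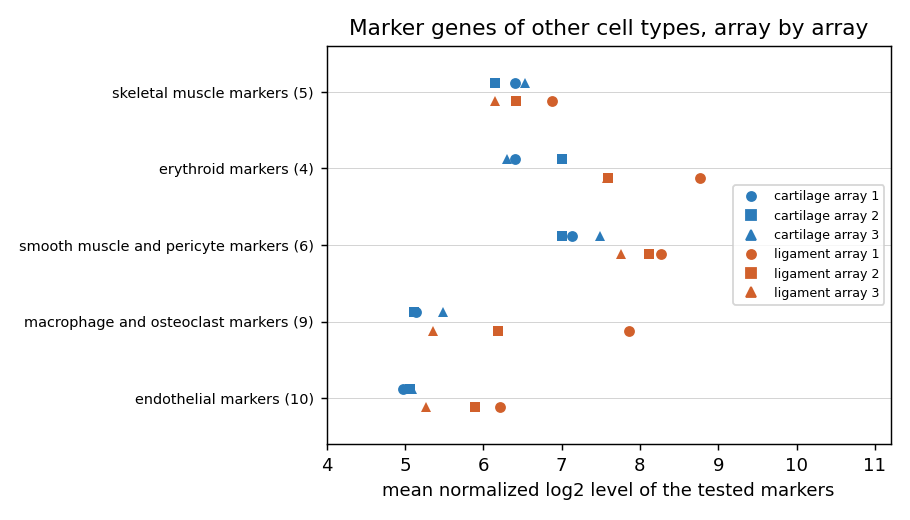
Mean normalized log2 level (x axis) of the tested markers of 5 other cell types on each cartilage array (blue) and ligament array (orange), with the number of markers in parentheses and the marker shape giving the replicate. Macrophage markers run from 5.36 to 7.86 over the ligament arrays and stay between 5.11 and 5.49 in cartilage, and erythroid and pericyte markers are higher on every ligament array than on any cartilage array.

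The meniscus arrays show which of these differences separate ligament from another fibrous tissue of the same knee, with the reservation that this comparison uses the same ligament arrays. Mfap4 read between 7.36 and 7.63 on the 3 meniscus arrays and was higher in ligament than in meniscus as well (adjusted p = 0.00233), as were Cald1 (adjusted p = 0.00721), Mkx (adjusted p = 0.0186), Col1a1 (adjusted p = 0.0108) and Chrdl1 (adjusted p = 0.00212). Igf1 read between 10.55 and 10.60 in meniscus, Lox between 9.82 and 10.16, and Kera between 6.41 and 8.25, all near their ligament levels, with adjusted p-values for ligament against meniscus of 0.757, 0.839 and 0.990. Among the genes that fell, Col8a1, with 8.86 to 9.72 in meniscus, and Egr1, with 10.25 to 10.73, were lower in ligament than in meniscus too (adjusted p = 0.00196 and 0.00404). Comp, with 7.51 to 9.52 in meniscus, did not pass that test (adjusted p = 0.694).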

How the data were processed

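RNA of 9 arrays (3 each of cruciate ligament, articular cartilage and meniscus) was analysed. Per the labels' protocols it was extracted with the PicoPure kit, treated with DNase, amplified with the Ovation Pico system and labelled with biotin. The deposited scanner tables give an intensity per probe and array on a linear scale, not normalized, per the file headers. The deposited detection p-value beside each intensity is the authors' own from the same scanner output. The submitters' processing notes name GenomeStudio, without a version.

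Scanner rows carry no names: each of 45281 rows was paired by its ranks over the arrays with a row of the authors' value table, whose probe names lead to the platform's gene symbols. Every row had 1 partner, and 34885 probes had 1 symbol, 18 several and 10378 none; 34807 were found in the RefSeq table of GRCm38.p6. Signals were corrected and quantile normalized over 9 arrays with limma's neqc (version 3.58.1, R 4.3.3; offset 16, negative controls inferred from the detection p-values). Probes with a detection p under 0.01 on all 3 arrays of at least 1 tissue were kept, 12538 in all, and the kept probe with the highest mean stood for its gene, which gave 7234 named genes and 1932 unnamed probes. Genes were fitted with lmFit and eBayes over 9 arrays with no block, and the contrast ligament minus cartilage was adjusted over 9166 features (Benjamini-Hochberg). The code was tested on simulated data. The number of arrays limits the precision.

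Genes were named by a rule: 8 landmarks, the 12 largest rises and falls among called genes detected on all 6 arrays, the 6 largest bounds in each direction, the called members of 22 gene lists and 10 lists of cell markers, at most 6 in each direction, and up to 3 uncalled members with the highest levels. Other uncalled members of these lists, and called ones past that number, were named after their values were seen. The comparison, the lists and the rule were chosen with earlier results of these data known. Alternatives changed the normalization, background correction, filter, probe choice, fit and set of arrays.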

Additional observations from a re-analysis of the deposited data

How the results depend on the processing

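Under cyclic loess normalization 404 genes were higher and 481 lower, with a median difference of -0.042 on the log2 scale. Scaling each array to its median gave 86 higher and 3715 lower with a median of -0.92, and all 822 genes called lower kept their call there against 81 of the 275 called higher. It turned the sign of 42 called genes, among the named ones Fmod (-0.018), Mmp14 (-0.21), Ndufa4 (-0.14), Ogn (-0.20), Pdia3 (-0.36), Postn (-0.18), Rrm1 (-0.23), Serpinf1 (-0.0495) and Vcan (-0.046), which were called higher over 9 arrays with quantile normalization. Normalizing and fitting the 6 arrays alone gave 137 higher and 426 lower, the fit restricted to both tissues 117 and 372, and a weight per tissue 115 and 355, with 114 and 355 genes shared with the main calls; the spread in ligament was the wider. Genes detected on all 9 arrays gave 333 lower and a median of -0.021. Chosen after seeing the data, genes detected on all 6 arrays gave 333 lower and a median of -0.011, and with both tissues alone in the fit 172 higher and 181 lower, also at -0.011; fewer genes were tested in these. The median was -0.11 without background correction, -0.15 with normexp at an offset of 50, 0.033 with no filter, -0.26 with the filter on ligament and cartilage arrays, and -0.11 with arrays centred on all tested features. Leaving out 1 array at a time gave between 113 and 353 higher and between 314 and 925 lower calls, the lowest without cartilage replicate 2 and the highest without ligament replicate 3. Same-numbered ligament and cartilage arrays did not deviate together (correlations of 0.010, -0.010 and -0.015). Deviations from a mean of 3 arrays cannot show whether same-numbered samples were paired, and the labels do not state it. With a replicate block 206 genes were higher and 615 lower. All other alternatives stayed within 1.5 times of the 275 and 822 calls. The cause of these shifts was not tested. Signal over background is 1 limit of the comparison: 3507 genes were detected on all ligament arrays and 6531 on all cartilage arrays.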

Other observations

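The genes described here lie outside the lists, were chosen after their values were seen and carry no test as groups. Some of the higher calls encode secreted matrix proteins. Abi3bp, an extracellular matrix protein that binds collagen, read 7.05, 6.96 and 7.04 on cartilage arrays 1 to 3 and 9.20, 9.15 and 8.92 on ligament arrays 1 to 3, a log2 difference of 2.31 relative to the median gene (limma adjusted p = 0.00123, and 0.0127 in the fit of both tissues alone). Ccdc80, a matrix protein of fibroblasts and fat precursors, rose by 2.41 (adjusted p = 0.0023), Ptn, the heparin-binding growth factor pleiotrophin, by 1.77 (adjusted p = 0.00373), Lamb1, a laminin chain, by 1.44 (adjusted p = 0.00919) and Vcan, the large proteoglycan versican, by 1.22 (adjusted p = 0.0167). Ligament and cartilage arrays did not overlap for any of these 5 genes. With arrays scaled to their medians the calls of Ptn, Lamb1 and Vcan were lost (adjusted p = 0.24, 0.702 and 0.893) and the plain difference of Vcan turned to -0.046; Vcan also lost its call with a weight per tissue (adjusted p = 0.0643) and without cartilage array 2 or 3 (adjusted p = 0.0709 and 0.0511).

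Other rises were seen in genes of proteolysis and vessels. Cpm, a membrane carboxypeptidase, read 4.75, 6.30 and 7.11 in cartilage and 9.67, 9.50 and 9.03 in ligament and rose by 3.58 (adjusted p = 0.00452), and Plau, the urokinase plasminogen activator, read 4.63, 5.39 and 5.41 against 8.59, 7.86 and 6.91 and rose by 2.87 (adjusted p = 0.0051). Angpt1, a ligand that steadies vessels, rose by 2.21 and Bcl6b, an endothelial repressor, by 1.59, both called in the fit of both tissues alone as well (adjusted p = 0.0424 and 0.0308). Bcl6b kept its call under all 24 alternatives run for it and Angpt1 under 18 of 27, with losses without ligament array 1 or 2, cartilage array 1 or 2, or meniscus array 2 (adjusted p of up to 0.126). Apln, its receptor Aplnr and the guidance receptor Nrp1 were called over 9 arrays but not in that fit (adjusted p = 0.101, 0.0764 and 0.1). Ligament array 1 was the highest of the 3 for Plau, Angpt1 and Nrp1, as it was for the macrophage and endothelial marker lists, while array 2 was the highest for Apln and Aplnr and array 3 for Bcl6b; the part of those cells was not tested.

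Some of the lower calls, to which 11.4% of all genes belonged, encode enzymes of cholesterol synthesis. The number of such enzymes tested was not counted. Idi1, which makes an isoprenoid precursor, read 9.57, 9.64 and 9.38 in cartilage and 8.11, 7.48 and 7.78 in ligament and fell by 1.51 (adjusted p = 0.00264, and 0.0182 in the fit of both tissues alone). Fdps and Lss, which act later in that path, were above background on no ligament array (adjusted p = 0.00458 and 0.00294). Sqle, between them, was above background on 1 ligament array and was lower over 9 arrays but not in the fit of both tissues alone (adjusted p = 0.0892). Lgals3, the lectin galectin-3, read 9.55, 9.93 and 9.37 against 6.48, 7.01 and 4.49 and fell by 3.39 (adjusted p = 0.00525), with its probe above background on 2 ligament arrays. Fbp2, the muscle form of a gluconeogenic phosphatase, read 9.77, 9.30 and 9.19 against 5.07, 6.69 and 6.01 and fell by 3.26 (adjusted p = 0.00792), with its probe above background on 1 ligament array.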
